A study of Mus musculus with 41 samples.

Results

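The genes of MHC class II antigen presentation were examined in 41 mouse mammary tumors. The members were given by name as H2-Aa, H2-Ab1, H2-Eb1, H2-DMa, H2-DMb1, H2-Oa, Cd74 and Ciita, and all 8 were on the array and among the 20913 genes that passed the filter on dim probes. The tumors arose from mammary duct fragments of Trp53-null BALB/c mice that had been transplanted into cleared fat pads of wild-type female BALB/c hosts, so that the tumor epithelium lacked Trp53 and the host cells within the tumor did not. The fragments came from 4 donors. Hosts received a low fat diet (LFD, 10% of calories from fat) or a high animal fat diet (HFD, 60% of calories) from 3 weeks of age, and 2 of the 4 regimens switched the diet at 10 weeks. LFD and HFD were lifelong diets, HFD-LFD restricted the high fat diet to puberty, and LFD-HFD restricted it to adulthood. Tumors are named as in the labels, and the plots drop the prefix MSU. Tumors that appeared before 52 weeks were labelled early and the others late. Of the 29 tumors whose morphology label reads "p53 variable", called epithelial after the study, the LFD and HFD groups held 8 each, HFD-LFD held 7 and LFD-HFD 6, and 14 were early and 15 late. Of the 12 tumors labelled spindle-like, called spindle cell tumors, 3 came from each regimen, and 3 were early and 9 late. RNA of whole tumor pieces was hybridised on 2-color arrays against a common reference pool of RNA from 11 mouse cell lines, and each value below is the log2 ratio of tumor over reference unless another quantity is named. This direction follows the dyes of the labels, which the study's methods give the other way round. In such bulk RNA, fewer cells of a type and less RNA per cell cannot be told apart.

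MHC class II molecules are surface heterodimers of an alpha and a beta chain that show peptides from endocytosed proteins to CD4 T cells. In the mouse, H2-Aa and H2-Ab1 encode the I-A dimer, and H2-Eb1 encodes the beta chain of I-E. Cd74, the invariant chain, escorts new dimers to the endosome and blocks their groove. H2-DMa and H2-DMb1 encode the chains of H2-DM, which exchanges the remaining invariant chain fragment for peptide, and H2-Oa encodes a chain of H2-O, which inhibits H2-DM. Ciita, the class II transactivator, is a coactivator without DNA binding of its own that is recruited to class II promoters by the RFX complex, CREB and NF-Y. Dendritic cells, B cells and macrophages express the pathway constitutively or on activation, and interferon-gamma can induce it in other cells, epithelial cells included.

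The promoters of class II genes share boxes for these factors, and the windows below are shown because most members varied together between tumors. Promoters of 5 of the 8 members were found in the RefSeq table (build GRCm38.p6); H2-Ab1, Cd74 and Ciita were not matched. Each table entry runs from 250 bases before to 50 bases after a start site. Capitals mark 3 strings searched on both strands, AGCAAC (letters of the X box bound by RFX), TGACGTCA (the CREB palindrome) and ATTGG (the Y box of NF-Y, CCAAT on the other strand). No 2 of the marked matches overlapped. The windows cover positions -120 to -21.
H2-Aa (chr17:34287844-34287943, minus strand): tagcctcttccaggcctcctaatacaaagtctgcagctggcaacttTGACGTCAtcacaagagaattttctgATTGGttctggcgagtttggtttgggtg
H2-Eb1 (chr17:34305747-34305846, plus strand): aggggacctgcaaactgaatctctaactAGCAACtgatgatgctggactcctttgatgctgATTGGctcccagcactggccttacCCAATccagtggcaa
H2-DMb1 (chr17:34153071-34153170, plus strand): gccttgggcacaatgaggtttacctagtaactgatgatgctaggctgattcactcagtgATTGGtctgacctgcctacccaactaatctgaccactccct
H2-Oa (chr17:34092259-34092358, plus strand): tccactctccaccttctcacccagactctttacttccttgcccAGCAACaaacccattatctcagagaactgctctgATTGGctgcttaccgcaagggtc

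ATTGG began at -48 in H2-Aa, -59 in H2-Eb1, -61 in H2-DMb1 and -43 in H2-Oa, and H2-Eb1 held it on the other strand at -35. AGCAAC stood at -92 in H2-Eb1 and at -77 in H2-Oa, and TGACGTCA at -74 in H2-Aa. H2-DMa, which had 2 start sites in the table, held none of the 3 strings in this window. Over the whole 300 bases of 32851 promoters, a longer stretch than this window, 37.4% held ATTGG, 14.8% AGCAAC and 1.79% TGACGTCA. On that stretch H2-DMa held ATTGG as well, at -198 from its start site 2. AGCAAC followed by ATTGG within 50 bases on the same strand, the order seen in H2-Eb1 and H2-Oa, was held by 0.603%. These matches describe letters only.

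The array reads each gene with 60-base probes whose positions the files give on NCBI37/mm9. The probes of H2-Aa (chr17:34421285-34421344), H2-Ab1 (chr17:34406296-34406355), H2-Eb1 (chr17:34453075-34453134), H2-DMb1 (chr17:34297109-34297168) and H2-Oa (chr17:34232033-34232092) each lay in 1 block of the class II region on chromosome 17. The probe of H2-DMa covered 564 bases of genome with 60 bases of sequence (chr17:34274300-34274863), so its target is spliced. No exon or UTR annotation of this build was used here.

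H2-Ab1 had 2 probes that shared 51 bases and differed at 1 base, T51C, counted from the first base of the probe of higher signal.
H2-Ab1, bases 31 to 60 of the probe of higher signal, differing base in capitals: agattacaaataaacgagacTcagactctg
H2-Ab1, the same stretch of the other probe (its bases 22 to 51): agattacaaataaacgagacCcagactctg

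The mean log2 ratios of these H2-Ab1 probes were 2.59 and 2.83, and their correlation across 40 tumors was 0.981. Both probes ordered the tumors nearly alike, and the brighter one is used below.

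Several facts of the arrays touch all that follows. The labels place tumor RNA in the Cy5 channel, whereas the study's methods place the reference there. Of the Y chromosome, Ddx3y and Eif2s3y gave the stronger signal in Cy3 on each of 41 arrays (median log2 Cy5 over Cy3 from -8.08 to -3.63). Donors and hosts of the tumors were female and carry no Y chromosome, so the direction of the labels was kept. The spindle cell tumors had a scan session, scanner and 3 slides of their own, so histology and session cannot be told apart. Of the 8 slides with epithelial tumors, 7 carried 1 regimen. Tumors MSU_42L4B and MSU_60L (both epithelial HFD early) formed a second epithelial session, and 22.02% of the spots of MSU_60L were marked as outliers, against a median of 0.61% in epithelial tumors. As a result MSU_60L had no value for H2-Ab1, H2-Eb1 and Cd74. Single outlier spots left tumor MSU_90R without a value for H2-DMa and tumor MSU_71L without one for Ciita. For MSU_40R4A, MSU_57R and MSU_65R (all epithelial HFD) the deposited value table matched the scanner file of another label of the 3 better than their own. MSU_57R was labelled late and the other tumors of this set early, so the dispute touches onset but not diet. The 41 tumors carry 38 label numbers, of which 3 stand on 2 tumors each, and nothing else in the labels says which tumors share a host, so p-values measure the spread between tumors. With 43020 spots per array, the number of arrays limits the precision.

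All 8 class II genes stood above the cell line reference in most tumors. Over 41 tumors the median gene had a log2 ratio of 0.217. Cd74, the invariant chain, had a mean log2 ratio of 3.19 ± 0.70 (SD, n = 40), with a lowest value of 1.42 in MSU_13L, a median of 3.13 and a highest value of 4.80 in MSU_108R, and 99.4% of genes had a lower mean ratio. It was above 0 in 40 of 40 tumors.

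The dimer chains followed. H2-Ab1 ranged from 1.30 (MSU_13L) through a median of 2.60 to 4.39 (MSU_108R), with a mean of 2.59 ± 0.60 (SD, n = 40). H2-Eb1 ranged from 1.41 (MSU_13L) through 2.19 to 3.90 (MSU_108R), with a mean of 2.24 ± 0.47 (SD, n = 40). Both were positive in every tumor measured, and the tumors at either end were the same for both. H2-Aa, the alpha chain of I-A, spread more widely, from -1.38 (MSU_13L) through 1.83 to 4.99 (MSU_42L4B), with a mean of 1.77 ± 1.25 (SD, n = 41), and was above 0 in 38 of 41 tumors. The highest pair of H2-Aa values belonged to MSU_42L4B and MSU_60L, the tumors of the second session.

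Of the peptide exchange genes, H2-DMb1 ranged from 1.61 (MSU_117L) through 3.37 to 4.92 (MSU_108R), with a mean of 3.29 ± 0.67 (SD, n = 41), and 99.5% of genes had a lower mean ratio. H2-DMa ranged from 1.12 (MSU_109L) through 2.56 to 4.53 (MSU_42L4B), with a mean of 2.48 ± 0.78 (SD, n = 40). H2-Oa, the chain of the H2-DM inhibitor, ranged from -0.90 (MSU_M18L) through 1.37 to 4.82 (MSU_108R), with a mean of 1.57 ± 1.30 (SD, n = 41), and 36 of 41 tumors were above 0. Ciita ranged from -0.28 (MSU_66L) through 1.06 to 3.09 (MSU_101L4A), with a mean of 1.07 ± 0.75 (SD, n = 40), and 85.3% of genes had a lower mean ratio. That level depended on the background correction: the epithelial mean of 1.01 was 0.32 after normexp and loess and 0.28 in the deposited value table, and the spindle cell mean of 1.19 was 0.30 and 0.57. H2-Aa, H2-Oa and Ciita thus lay below the reference in a few tumors, and H2-Ab1, H2-Eb1, H2-DMa, H2-DMb1 and Cd74 in none of those measured.

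**Figure D1:**
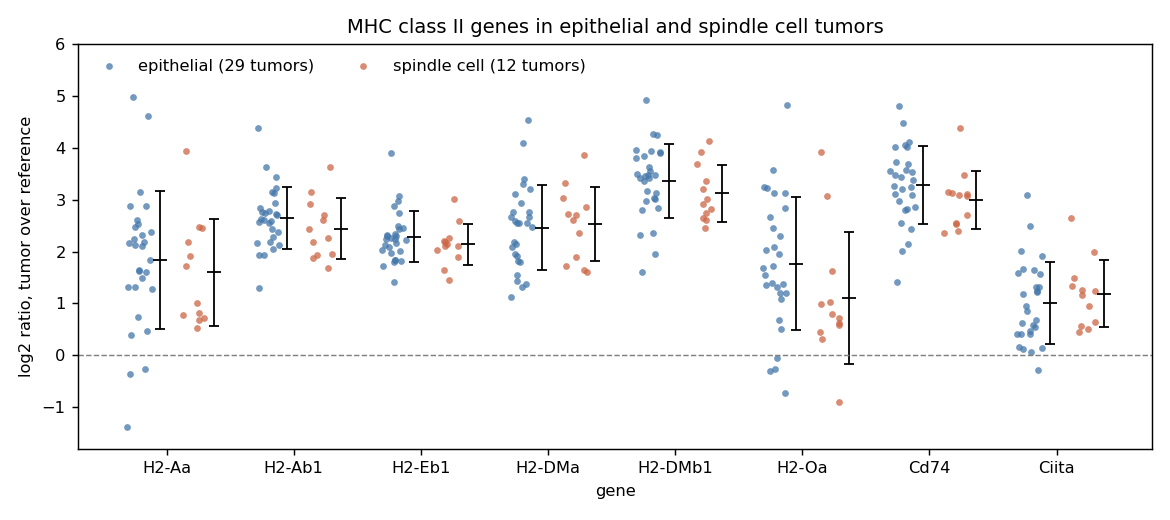
Log2 ratio of tumor over reference (y axis) of each MHC class II gene (x axis) in 29 epithelial and 12 spindle cell tumors; each point is a tumor, bars give the mean ± SD, and the dashed line marks the reference level. The point clouds of both histologies overlap for all 8 genes, and H2-Aa and H2-Oa spread over the widest ranges, down to -1.38 and -0.90.

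These ratios rest on signals of very different size. Median processed signals in the tumor channel were 60500 for Cd74, 56600 for H2-Ab1 and 51500 for H2-Eb1, with 8670 for H2-DMb1, 2290 for H2-DMa, 882 for H2-Aa and 305 for H2-Oa. That of Ciita ran from 26.3 to 1110. In the tumor channel each of the first 7 exceeded background clearly on 41 of 41 arrays. Ciita was so on 38 of 41, and on 9 of 12 spindle cell arrays. Signals of different probes are not compared as amounts of RNA here.

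Genes of the class II family outside the 8 members were less evenly measured. H2-Ob, the partner chain of H2-Oa, had a mean log2 ratio of 0.74 in epithelial and 0.49 in spindle cell tumors. The alpha chain of I-E, which the array lists as H2-Ea-ps because the C57BL/6 strain does not make it, was left out by the filter on its reference signal. Its tumor signal ran from 189 through a median of 1990 to 10800 and was well above background on 41 of 41 arrays, whereas the reference was above background on 16 of 41. BALB/c tumors thus gave signal for both chains of I-E. In the same channel H2-DMb2 exceeded background on 28 arrays and H2-Eb2 on 13, and both were left out by the same filter.

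Within the epithelial tumors, 7 of the 8 genes varied together. The correlation of each gene with the mean of the other members over 28 or 29 epithelial tumors was 0.91 for Cd74, 0.89 for H2-Ab1, 0.83 for H2-Eb1, 0.79 for H2-DMa, 0.71 for H2-DMb1, 0.70 for H2-Aa and 0.66 for H2-Oa. For Ciita, whose values rest on 1 dim probe, it was 0.20, and what else that probe binds was not tested. Spearman's rho for the same genes ran from 0.55 (H2-Oa) to 0.85 (Cd74), with 0.21 for Ciita. Without the 2 tumors farthest from the median of the x axis, Pearson's r ran from 0.54 (H2-Oa) to 0.89 (Cd74), with 0.36 for Ciita, and within the first scan session it ran from 0.74 to 0.91, with 0.14 for Ciita. The points of such a correlation share array, slide and the amount of host tissue in the piece, so r is given as a description.

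The highest r of a pair in epithelial tumors was that of H2-Ab1 and H2-Eb1 (0.96, and 0.90 in spindle cell tumors), the beta chains of both dimers. H2-Ab1 and Cd74 followed in epithelial tumors at 0.92. Over the 28 pairs of members, r in epithelial tumors ran from 0.07 to 0.96 with a median of 0.66. The lowest was that of Cd74 with Ciita. In the 12 spindle cell tumors the same 28 pairs ran from -0.58 to 0.96 with a median of 0.65, and every pair with Ciita was negative, from -0.58 (H2-DMb1) to -0.21 (H2-DMa). The other 7 genes kept correlations of 0.69 to 0.89 with the mean of the other members there, although rho of H2-Oa was 0.26 and r of H2-DMa was 0.32 without 2 tumors.

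**Figure D2:**
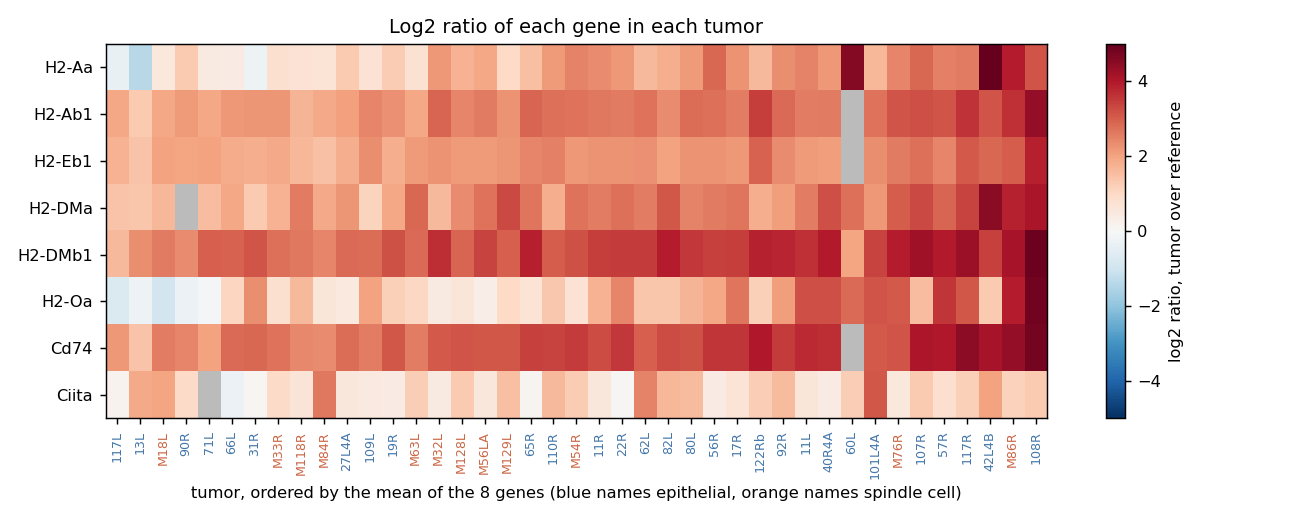
Log2 ratio of tumor over reference (color) of the 8 genes (rows) in the 41 tumors (columns), ordered by the mean of the genes, with missing values in grey. Color deepens from left to right in 7 rows, from the tumors MSU_117L and MSU_13L with means of 0.99 and 1.01 to MSU_108R with 3.93, whereas the Ciita row shows no such order.

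The same tumors marked both ends of the range. The mean over the members was highest in MSU_108R (3.93, epithelial HFD-LFD late), MSU_M86R (3.50, spindle LFD-HFD early) and MSU_42L4B (3.30, epithelial HFD early), and lowest in MSU_117L (0.99, epithelial HFD-LFD early) and MSU_13L (1.01, epithelial LFD late). In the tumor channel MSU_108R had the lowest share of probes well above background of the epithelial tumors, 52.38% against a median of 73.79%. Tumors MSU_117L and MSU_117R carry the same label number, regimen and onset, yet H2-Aa was -0.36 in MSU_117L and 2.60 in MSU_117R, H2-Ab1 1.93 and 3.63, H2-Oa -0.73 and 3.12, and Cd74 2.15 and 4.48. Tumors MSU_11L and MSU_11R differed far less, with 2.58 and 2.64 for H2-Ab1 and 3.72 and 3.27 for Cd74. The third such pair crossed histologies: MSU_56R (epithelial) and MSU_M56LA (spindle cell) had 3.58 and 3.11 for Cd74. The members differed far more within the first of these pairs than within the others.

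The first comparison asked whether the class II genes differed between spindle cell and epithelial tumors. None of the 8 members passed an adjusted p of 0.05 in limma's test, while 20.2% of all 20913 genes tested passed. No member had an unadjusted p under 0.05, beside 33.4% of all genes. The median difference over the members was -0.22 (spindle cell minus epithelial), with 2 of 8 positive, beside a median of -0.07 over all genes. Cd74 had a median of 3.08 in spindle cell tumors, between 2.36 and 4.38, and of 3.33 in epithelial tumors, between 1.42 and 4.80. The difference in means was -0.28 (SE 0.24, adjusted p = 0.421, limma).

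H2-Oa had the smallest adjusted p of the members. Its values ran from -0.90 through 0.76 to 3.92 in spindle cell tumors and from -0.73 through 1.68 to 4.82 in epithelial tumors. The difference of -0.66 had an SE of 0.43 (adjusted p = 0.278, limma), and the ranges overlapped almost entirely. For the chains of the dimers the differences were -0.24 for H2-Aa, -0.21 for H2-Ab1 and -0.15 for H2-Eb1, with adjusted p from 0.504 to 0.727 (limma). H2-DMb1 differed by -0.23 and H2-DMa by 0.07. Ciita differed by 0.17 with this setting and by -0.03 after normexp background correction and loess, neither passing the test. The highest spindle cell value of 7 of the 8 genes belonged to 1 tumor, MSU_M86R.

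Few genes of the wider pathway passed in this comparison, in which 20.2% of all genes passed and 33.4% had an unadjusted p under 0.05. The counts of these short lists were not tested against those shares. Of 6 promoter factors measured, only Nfyc, a subunit of NF-Y, passed, and it was lower in spindle cell tumors (-0.35, SE 0.11, adjusted p = 0.0268, limma). None of the 6 lysosomal genes passed, and 1 had an unadjusted p under 0.05, the endosomal protease Lgmn (difference 0.54, adjusted p = 0.105). H2-Ob had a difference of -0.25 (adjusted p = 0.592). None of 7 genes of the interferon-gamma axis, none of 8 turnover and co-stimulation genes and none of 9 MHC class I genes passed. Their members with an unadjusted p under 0.05 numbered 1, 2 and 0. The class I genes lay between -0.32 (Psmb9) and 0.17 (Tap1). Among leukocyte markers, C1qb of macrophages was higher by 0.87 (adjusted p = 0.0099), Cd53 of leukocytes in general by 0.94 (adjusted p = 0.0417), and Cd8a of T cells was lower, with a difference of -1.39 (adjusted p = 0.0343). The other 8 of 9 macrophage, 5 of 6 pan-leukocyte and 6 of 7 T cell markers did not pass, and neither did any of 5 B cell or 5 dendritic cell markers (0 and 1 at an unadjusted p under 0.05). The spindle cell label itself went with 3 of 8 mesenchymal markers (Vim, Zeb1 and Col3a1) higher and 0 of 9 epithelial markers passing the test in limma, of which 3 had an unadjusted p under 0.05.

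**Figure D3:**
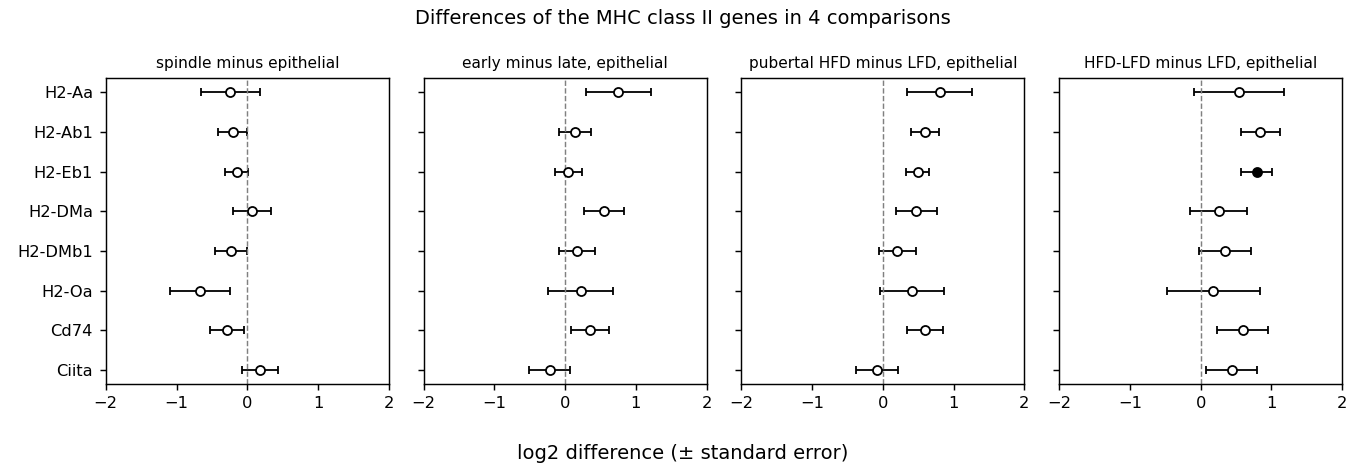
Log2 difference ± standard error (x axis) of the 8 genes (rows) in 4 comparisons, with the filled point marking the value that passed its threshold. H2-Eb1 in HFD-LFD against LFD epithelial tumors (0.79) is the filled point; in spindle cell against epithelial tumors 6 of 8 points lie left of 0.

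The second comparison set early against late tumors. In the epithelial tumors 0 of 8 members and 0.22% of all genes passed an adjusted p of 0.10 in limma. No member had an unadjusted p under 0.05, beside 13.2% of all genes. Only 3 of the 8 epithelial slides, with 12 tumors, held both onset groups, so onset and slide were partly confounded. MSU_40R4A, MSU_57R and MSU_65R, whose labels are disputed, lay together on a slide of this kind. The median difference over the members was 0.19 (early minus late) with 7 of 8 positive, beside 0.01 over all genes. H2-Aa ran from -0.36 through 2.21 to 4.99 in 14 early and from -1.38 through 1.61 to 3.15 in 15 late tumors, a difference of 0.75 (SE 0.46, adjusted p = 0.487, limma). Its highest values belonged to MSU_42L4B and MSU_60L, and without them the difference was 0.32 (adjusted p = 0.824). H2-DMa ran from 1.32 through 2.72 to 4.53 and from 1.12 through 2.05 to 4.10, a difference of 0.55 (SE 0.28, adjusted p = 0.404). Its highest value also belonged to MSU_42L4B, and the difference ran from 0.25 to 0.59 over the 15 alternative settings. Early tumors thus had the higher median for both, within wide overlap. Cd74 differed by 0.35 (SE 0.27), H2-Oa by 0.22, H2-DMb1 by 0.17, H2-Ab1 by 0.15 and H2-Eb1 by 0.05, and Ciita by -0.22.

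No gene of the wider pathway lists passed the threshold in this comparison in limma. Nlrc5, the class I counterpart of Ciita, had a mean of 5.55 in early and 4.40 in late epithelial tumors (difference 1.15, SE 0.29, unadjusted p = 0.000486, adjusted p = 0.114, limma). All 9 MHC class I genes were positive, 3 of them with an unadjusted p under 0.05 (13.2% of all genes), with a median of 0.45 and Tap1, a subunit of the peptide transporter, at 0.93. The corresponding median of the class II members was 0.19, and whether the lists differed was not tested. Of the promoter factors, all 6 lay between 0.01 and 0.29.

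Over all 41 tumors, 0 of 8 members passed (0.0143% of all genes did), with H2-DMa alone at an unadjusted p under 0.05 (0.53, SE 0.23, adjusted p = 0.49, limma), beside 9.07% of all genes. In the 12 spindle cell tumors, 0 members and 0.0% of all genes passed, and none of the members had an unadjusted p under 0.05, beside 2.04% of all genes. The 3 early spindle cell tumors were MSU_M86R, MSU_M129L and MSU_M84R. Their H2-Oa values were 3.92, 0.98 and 0.62, against a median of 0.72 in 9 late tumors, and their Cd74 values were 4.38, 3.09 and 2.36, against a median of 3.06. MSU_M86R set the sign of these differences: with it the median difference over the members was 0.37, and without it 6 of the 8 turned negative. No member passed the test of a different onset effect between histologies, in which 0.00478% of all genes passed, or between regimens, also 0.00478%. None had an unadjusted p under 0.05 in either (3.03% and 7.22% of all genes did), and the smallest p in the former was that of Ciita (difference of differences 0.99, SE 0.56, adjusted p = 1, limma).

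The third set of comparisons concerned diet, and the differences of the class II genes with pubertal high fat diet did not pass the threshold. In epithelial tumors, HFD and HFD-LFD against LFD and LFD-HFD, 0 of 8 members and 0.0% of all genes passed an adjusted p of 0.10 in limma, and 3 members (H2-Ab1, H2-Eb1 and Cd74) had an unadjusted p under 0.05, as did 9.88% of all genes. The median difference over the members was 0.48 with 7 of 8 positive, beside -0.04 over all genes. H2-Ab1 had a mean of 2.95 ± 0.63 (SD, n = 14) with and 2.36 ± 0.42 (SD, n = 14) without pubertal HFD, a difference of 0.59 (SE 0.20, adjusted p = 0.328, limma). H2-Eb1 differed by 0.49 (SE 0.17, adjusted p = 0.333), Cd74 by 0.59 (SE 0.26, adjusted p = 0.447) and H2-Aa by 0.80 (SE 0.46), or by 0.41 without MSU_42L4B and MSU_60L. H2-DMa differed by 0.47, H2-Oa by 0.41, H2-DMb1 by 0.20 and Ciita by -0.09.

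Slide and diet were nearly confounded here. Only 1 slide with 4 tumors held both pubertal diets, and with slide as a fixed block H2-Ab1 turned to -0.08, H2-Eb1 to -0.04 and Cd74 to -0.07. On that slide the HFD tumors (MSU_56R and MSU_62L) were late and the LFD-HFD tumors (MSU_80L and MSU_92R) early. Pubertal diet and onset thus cannot be told apart in the blocked fit. Most leukocyte markers had differences of the same sign as the members in this contrast, and their part in the result was not tested. All 6 pan-leukocyte markers were positive, between 0.21 and 0.88, all 9 macrophage markers between 0.01 and 0.68, and all 7 T cell markers between 0.06 and 0.75, and none of them passed the threshold (1, 2 and 0 had an unadjusted p under 0.05). Of the dendritic cell markers 4 of 5 were positive, between -0.13 and 0.38 with a median of 0.31, and of the B cell markers 3 of 5, between -0.19 and 0.60 with a median of 0.15, none of them with an unadjusted p under 0.05. The mean pan-leukocyte log2 ratio ran from 1.26 to 2.56 in HFD, 0.55 to 1.80 in HFD-LFD, 0.41 to 2.07 in LFD and 0.56 to 1.70 in LFD-HFD tumors. MHC class I genes were less one-sided, with 6 of 9 positive and a median of 0.13.

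**Figure D4:**
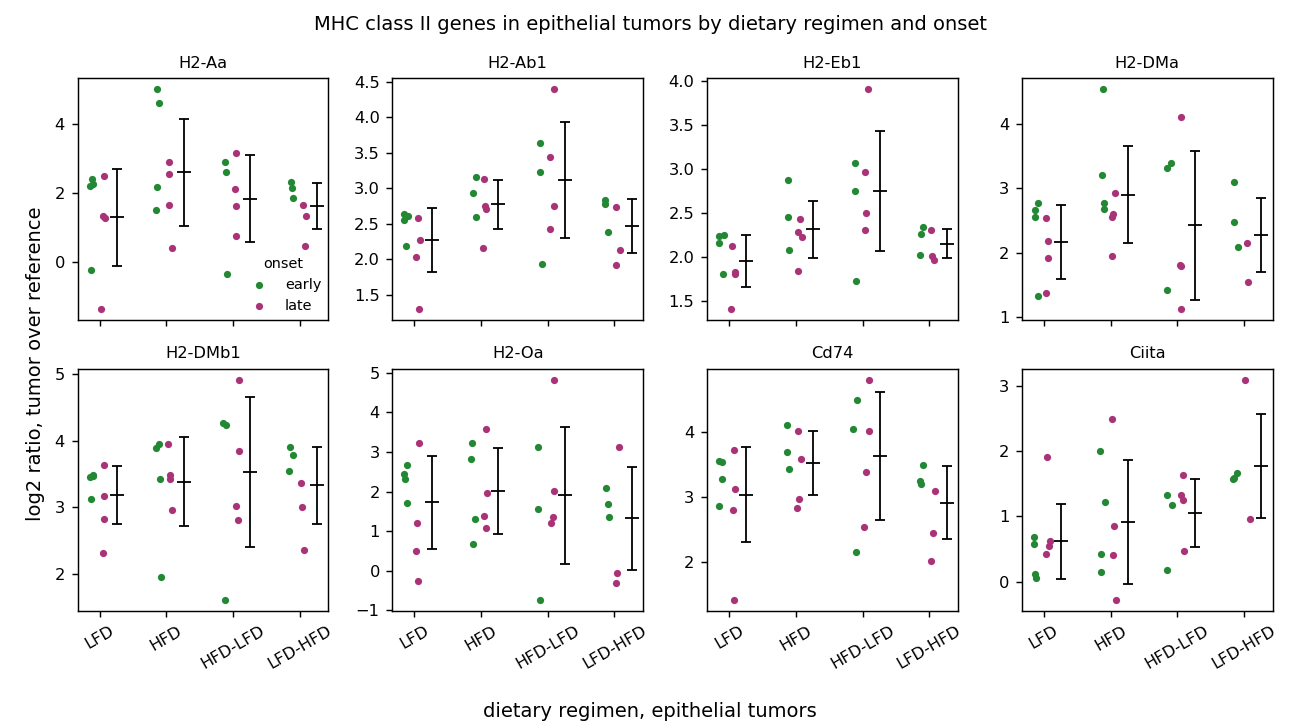
Log2 ratio of tumor over reference (y axes, a scale of its own in each panel) of the 8 genes in epithelial tumors by dietary regimen (x axis); points are tumors, green early and purple late, and bars give the mean ± SD. H2-Ab1 and H2-Eb1 reached their highest means, 3.12 and 2.75, in HFD-LFD tumors and their lowest, 2.27 and 1.96, in LFD tumors, with overlapping points.

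Across the 4 regimens of epithelial tumors 0 of 8 members passed the F test (0.473% of all genes did). For 2 members, H2-Eb1 and H2-Ab1, the unadjusted p was under 0.05 (adjusted p = 0.258 and 0.337, limma), as it was for 12.9% of all genes. In the pairs of regimens 1 call was made. H2-Eb1 ran from 1.73 (MSU_117L) through 2.75 to 3.90 (MSU_108R) in 7 HFD-LFD tumors and from 1.41 (MSU_13L) through 1.98 to 2.25 (MSU_22R) in 8 LFD tumors. The difference was 0.79 (SE 0.22, adjusted p = 0.0977, limma), and 1.4% of all genes passed in that pair, so 1 of 8 members stood beside 292 of 20913 genes. H2-Eb1 medians fell in the order HFD-LFD, HFD (2.29), LFD-HFD (2.14) and LFD, and regimens next to each other in that order did not pass limma's test against each other (adjusted p = 0.407, 0.847 and 0.954). The call did not hold without MSU_108R (0.60, adjusted p = 0.204) or in a fit with random slide effects (0.78, adjusted p = 0.387), and it was made in 5 of 13 alternative settings. No slide held tumors of both regimens, so regimen and slide cannot be told apart in this pair, with or without random slide effects. Without MSU_117L, the low tumor of the pair with MSU_117R, the difference was 0.96 (adjusted p = 0.0355), and H2-Ab1 passed as well (1.04, adjusted p = 0.0737).

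H2-Ab1 itself ran from 1.93 through 3.23 to 4.39 in HFD-LFD and from 1.30 through 2.41 to 2.64 in LFD tumors (difference 0.84, SE 0.27, adjusted p = 0.163, limma). Cd74 differed by 0.60 (SE 0.36), H2-Aa by 0.54, Ciita by 0.44, H2-DMb1 by 0.34, H2-DMa by 0.26 and H2-Oa by 0.18. All 8 were positive with a median of 0.49. In the same pair the pan-leukocyte markers lay between -0.11 and 0.25 with a median of 0.04, and the MHC class I genes had a median of -0.04 with 4 of 9 positive. Of the 9 macrophage markers 8 were positive, between -0.20 and 0.69 with a median of 0.24. None passed in limma, and C1qb (0.69, adjusted p = 0.357) and Itgam (0.62, adjusted p = 0.327) had an unadjusted p under 0.05, as did 13.5% of all genes. So did March1, a ubiquitin ligase that turns over class II (0.75, SE 0.35, adjusted p = 0.339). The promoter factor Creb1 was lower (-0.687, SE 0.275, unadjusted p = 0.0187, adjusted p = 0.264, limma). The part of these genes in the result was not tested. Itgax, a dendritic cell and macrophage integrin, had the smallest p of the dendritic cell markers (0.72, SE 0.23, unadjusted p = 0.00458, adjusted p = 0.163, limma). The other dendritic cell markers did not share a sign: Batf3 (0.17) and Zbtb46 (0.11) were positive, Flt3 (-0.39) and Ccr7 (-0.47) negative. None of these markers other than Itgax had an unadjusted p under 0.05.

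In the other 5 pairs of regimens no member passed in limma, where 0.0% (HFD against LFD), 0.0% (LFD-HFD against LFD), 0.0287% (HFD-LFD against HFD), 0.23% (LFD-HFD against HFD) and 0.0% (LFD-HFD against HFD-LFD) of all genes did. The members with an unadjusted p under 0.05 numbered 1, 1, 0, 1 and 2 in the same order, beside 9.44%, 6.54%, 13.4%, 10.4% and 5.05% of all genes. These pairs share tumors with each other. HFD against LFD gave H2-Aa the largest difference, 1.31 (SE 0.62, unadjusted p = 0.0444, adjusted p = 0.515), from 0.39 through 2.35 to 4.99 in HFD and from -1.38 through 1.75 to 2.48 in LFD tumors. Without MSU_42L4B and MSU_60L it was 0.57 (adjusted p = 0.795). LFD-HFD against LFD gave it for Ciita, 1.15 (SE 0.40, unadjusted p = 0.0078, adjusted p = 0.61), from 0.95 through 1.58 to 3.09 in 5 LFD-HFD tumors and from 0.06 through 0.56 to 1.91 in LFD tumors. Against HFD-LFD, LFD-HFD tumors were lower by differences of -0.65 in H2-Ab1 and -0.59 in H2-Eb1, with unadjusted p of 0.0351 and 0.0183 and an adjusted p of 0.968 for both (limma).

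No difference of the class II genes with adult diet was detectable in epithelial tumors. HFD and LFD-HFD against LFD and HFD-LFD gave 0 of 8 members and 0.0% of all genes past the threshold, no member with an unadjusted p under 0.05 (4.01% of all genes), and a median difference of -0.01 with 4 of 8 positive. The errors were wide, and H2-Aa differed by 0.64 with an SE of 0.47, Ciita by 0.42 with an SE of 0.29, and Cd74 by -0.08 with an SE of 0.28.

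In the spindle cell tumors, diet gave 0 members past the threshold in limma in either comparison, with 0.0% of all genes for pubertal HFD against LFD and 0.0% across the 4 regimens. For pubertal HFD 1 of 8 members was positive (median -0.23), and no member had an unadjusted p under 0.05, beside 9.52% of all genes. Across regimens H2-Oa alone of the members had one (0.0433, adjusted p = 0.978), as did 3.76% of all genes. Its 3 values were -0.90, 0.45 and 0.80 in LFD, 0.32, 0.72 and 1.02 in HFD, 0.59, 0.98 and 1.63 in HFD-LFD, and 0.62, 3.07 and 3.92 in LFD-HFD tumors. The pair of high LFD-HFD tumors set H2-Oa apart there while the third lay among the other regimens. H2-DMa had medians of 1.65 in LFD, 2.73 in HFD, 2.61 in HFD-LFD and 3.04 in LFD-HFD tumors. It did not pass either (F test, unadjusted p = 0.0513, adjusted p = 0.978, limma).

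Over all 41 tumors pubertal HFD gave 0 members past the threshold (0.00956% of all genes), with H2-Eb1 alone at an unadjusted p under 0.05 (0.30, SE 0.14, adjusted p = 0.707, limma), beside 6.95% of all genes. The direction in epithelial and spindle cell tumors was opposite for H2-Aa, H2-Ab1, H2-Eb1, H2-DMb1, H2-Oa and Cd74. The test of that difference passed for no member (0.45% of all genes passed). H2-Ab1 came nearest, with 0.59 in epithelial and -0.34 in spindle cell tumors and a difference between them of -0.94 (SE 0.37, unadjusted p = 0.0168, adjusted p = 0.296, limma). H2-Eb1 also had an unadjusted p under 0.05 (adjusted p = 0.385), as did 12.2% of all genes.

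The level of class II genes was then set against marker genes of the cells that carry them. Over the 29 epithelial tumors the mean of the members had a correlation of 0.77 with the mean of 6 pan-leukocyte markers (rho = 0.79), of 0.67 with 5 dendritic cell markers (rho = 0.64), of 0.66 with 7 genes of the interferon-gamma axis (rho = 0.59), of 0.50 with 7 T cell markers (rho = 0.63), of 0.45 with 9 macrophage markers (rho = 0.52) and of 0.34 with 5 B cell markers (rho = 0.42). Within the 27 tumors of the first scan session these were 0.75, 0.70, 0.81, 0.58, 0.50 and 0.45 in the same order. Without the 2 tumors farthest from the median of the x axis they were 0.73, 0.59, 0.51, 0.50, 0.53 and 0.28. These are 6 relations over tumors that share arrays and bulk tissue, and they describe which genes went together.

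In the 12 spindle cell tumors the order differed. B cell markers stood at r = 0.89 (rho = 0.78), T cell markers at 0.82 (rho = 0.71), dendritic cell markers at 0.76 (rho = 0.45), the interferon-gamma axis at 0.75 (rho = 0.76), pan-leukocyte markers at 0.68 (rho = 0.59) and macrophage markers at 0.31 (rho = 0.36). The B cell value fell to 0.58 and the dendritic cell value to 0.09 without the 2 tumors farthest from the median, so the latter rested on those tumors. MSU_M86R and MSU_M76R had the highest B cell means, 3.42 and 3.29, and the highest class II means, 3.50 and 2.74, of the spindle cell tumors.

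**Figure D5:**
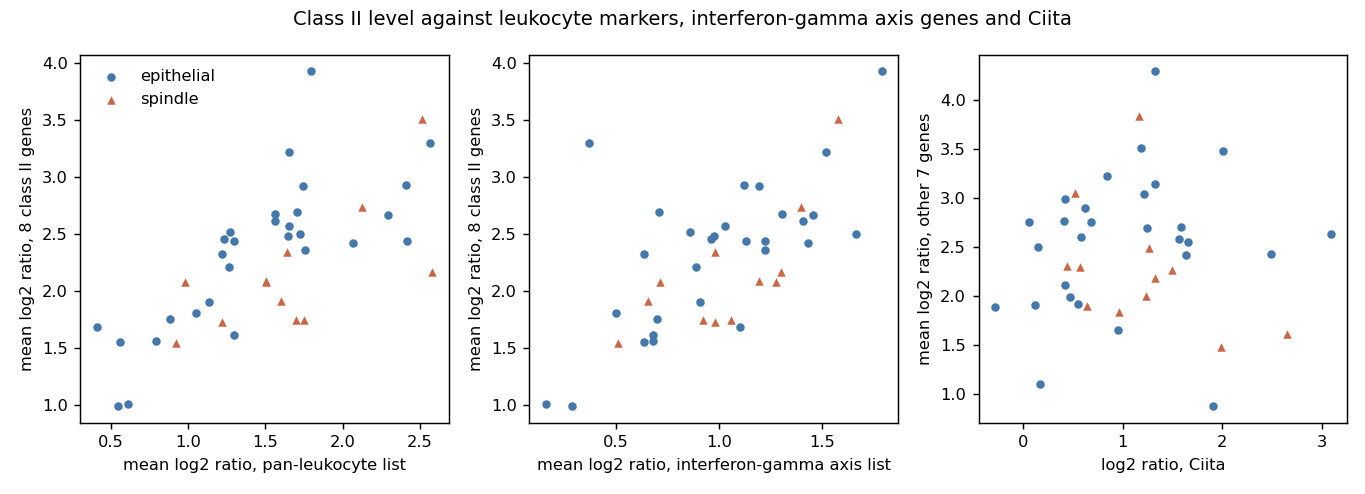
Mean log2 ratio of the 8 class II genes (y axis, left and middle) against the mean of the pan-leukocyte list and of the interferon-gamma axis list (x axes), and mean of the other 7 genes against Ciita (right), for 29 epithelial (circles) and 12 spindle cell tumors (triangles). The left cloud rises (r = 0.77 in epithelial tumors), the middle one rises with MSU_42L4B apart at an axis value of 0.37, and the right one shows no rise (r = 0.20).

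By single genes, the 10 genes outside the members most like their mean over epithelial tumors were Irf8 (r = 0.859), Il2rg (0.814), H2-D1 (0.813), A630001G21Rik (0.804), Cd52 (0.803), Napsa (0.785), Ptpn22 (0.78), Psmb9 (0.78), Cd40 (0.78) and H2-Q6 (0.762). Over all 20905 genes with a value the median r was -0.03, and 5% of genes were above 0.43. Irf8 is a transcription factor of dendritic cells, macrophages and B cells, Il2rg the common gamma chain of cytokine receptors and Cd52 a leukocyte surface protein. H2-D1 and H2-Q6 are class I genes, and Psmb9 is an immunoproteasome subunit. In spindle cell tumors the same genes had correlations from 0.193 (Ptpn22) to 0.799 (Irf8).

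The other lists of the pathway differed in likeness. The 9 MHC class I genes had correlations with the class II mean from 0.50 (Nlrc5) to 0.81 (H2-D1), with a median of 0.65. The 6 promoter factors ran from -0.32 (Nfya) to 0.38 (Nfyc), with a median of -0.07, close to that of all genes. Lysosomal genes divided: Ifi30, the thiol reductase that prepares antigens, stood at 0.73 and Ctss, the protease that trims the invariant chain in antigen presenting cells, at 0.62, whereas Ctsl stood at -0.17. Of the co-stimulation genes Cd40 stood at 0.78 and Icosl at 0.62, and of the ubiquitin ligases that turn over class II, March1 at 0.07 and March8 at -0.22. Epithelial markers had a median of 0.13 and mesenchymal markers of -0.14.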

How the data were processed

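Tumor RNA and reference RNA were hybridised on 2-color 4x44K Agilent arrays. The authors deposited 41 scanner files made with Feature Extraction (10.5.1.1 and 11.0.1.1 in the file headers, 8.5.1.1 in the labels). Their processed intensity per channel was background-subtracted and dye-normalized by Lowess within each array, and the deposited log10 ratio is that of Cy5 over Cy3. The authors also deposited a table of log2 ratios that they filtered and imputed, used here as an alternative only.

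From the processed intensities log2 of Cy5 over Cy3 was computed, outlier spots (1.2% of values of the genes kept) were set missing and spots of a probe were averaged. A probe was kept where at least 80% of arrays had processed signals over 10 for tumor and reference (27307 of 39429), and the brightest probe on average stood for each of 20913 genes. Comparisons were fitted over all genes with limma 3.58.1 in R 4.3.3 with Benjamini-Hochberg adjustment, at 0.05 for histology and 0.1 otherwise. The study set 0.1 for onset in epithelial tumors and for pubertal diet, and it is extended here to the other comparisons. The study's own test (SAM) was not run. The fits were tested on simulated data. Named genes were the 8 members, listed genes that passed or had the smallest p of a pathway list, and the 10 genes most like the members; list genes given by their likeness to the members, and the Y-linked genes, were chosen after their values were seen. The members, lists and tests were chosen with earlier results of these data known. Alternatives were normexp with loess, centring, outlier spots kept, other filters, probes averaged, the value table, disputed labels, slide as a block and tumors left out. Some items are not reported here.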

Additional observations from a re-analysis of the deposited data

Results flagged for a closer look

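Of 40 gene and group combinations of 4 to 10 tumors, 3 held a tumor far from the others, where chance gives 5% of them, and all 3 belonged to the same tumor, MSU_13L, in the 8 epithelial LFD tumors. Cd74 was 1.42 in MSU_13L, with the next value of 2.80 in MSU_27L4A. H2-Ab1 was 1.30 in MSU_13L, with the next value of 2.04 in MSU_27L4A. Ciita, in contrast, was highest there, at 1.91, with the next value of 0.68 in MSU_17R.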

How the results depend on the processing

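No paired analysis was possible because no comparison had more than 1 label number on both sides (11 across onset, 56 across histology). No member was called in any comparison other than the regimen pairs under the 13 to 15 alternatives and the leave-one-out fits of each. In the regimen pairs the number of members called fell from 1 to 0 at a threshold of 0.05, after normexp with loess, with outlier spots kept, without a filter on dim probes, in the value table, without the 3 tumors of disputed label, with 1 tumor per label number and in a fit with random slide effects, and ran from 0 to 2 with tumors left out in turn. The correlation with B cell markers was 0.478 after normexp, 0.383 after centring and 0.45 within the first scan session.

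Differences that changed sign were, for spindle cell minus epithelial, H2-Aa 0.034 and Ciita -0.13 in late tumors, H2-DMa -0.003 with outlier spots kept, and Ciita -0.025 after normexp. For early minus late epithelial tumors H2-Eb1 was -0.015 with 1 tumor per label number. For early minus late spindle cell tumors without MSU_M86R (MSU_42L4B and MSU_60L also left out) H2-Aa was -0.67, H2-Ab1 -0.33, H2-Eb1 -0.28, H2-DMb1 -0.37, H2-Oa -0.056 and Cd74 -0.17. For pubertal diet with slide as a fixed block H2-Ab1 was -0.082, H2-Eb1 -0.044, H2-DMb1 -0.22, H2-Oa -0.21 and Cd74 -0.065. That contrast rests on 1 slide, on which diet and onset coincide. For pubertal diet without the tumors of disputed label Ciita was 0.041. For HFD-LFD minus LFD H2-Oa was -0.023 with 1 tumor per label number. With tumors left out in turn, HFD-LFD minus LFD ran from -0.024 to 0.47 for H2-DMa and -0.31 to 0.62 for H2-Oa, early minus late from -0.015 to 0.17 for H2-Eb1 in epithelial tumors, and in spindle cell tumors from -0.67 to 0.96 for H2-Aa, -0.33 to 0.55 for H2-Ab1, -0.28 to 0.50 for H2-Eb1, -0.37 to 0.47 for H2-DMb1, -0.056 to 1.60 for H2-Oa and -0.17 to 0.84 for Cd74. Pubertal diet ran from -0.19 to 0.085 for Ciita and histology from -0.054 to 0.15 for H2-DMa. The cause of these changes was not tested.

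Over all genes and settings, calls ranged from 2355 to 7909 for histology (4224 reported), 0 to 291 for onset in epithelial tumors (46), 0 to 96 for onset in all tumors (3), 0 to 267 for pubertal diet in epithelial tumors (0), 0 to 97 in spindle cell tumors (0), 0 to 8 in all tumors (2), 6 to 2368 for its difference between histologies (94), 0 to 5 for onset by histology (1), 0 to 1653 for onset by regimen (1), 0 to 217 across epithelial regimens (99), 0 to 18 across spindle cell regimens (0) and 6 to 831 over the regimen pairs (346). Adult diet with slide as a fixed block could not be fitted. Levels over the reference kept their sign, but Ciita fell from 1.01 to 0.32 after normexp and 0.28 in the value table in epithelial tumors. In the tumor channel it was well above background on 38 of 41 arrays, against 41 for each other member.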
